A study of Mus musculus with 12 samples.

Results

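The interferon-stimulated genes Ifi27, Ifi27l2a, Eif2ak2, Usp18, Parp9 and Dtx3l were followed across the 4 transfected groups of a mouse cholangiocyte line. They are 6 of the 24421 genes counted, and were picked by name because several of them had higher counts in eGFP than in si-CTL cells, so their values in that pair of groups are given as a description and support nothing. The cells were SMCC, an immortalized line of mouse small cholangiocytes, the epithelial cells that line the bile ducts. Total RNA was sequenced from 12 libraries, 3 per group. The eGFP group received a control plasmid that encodes a green fluorescent protein, and the S45Y group a plasmid for a stabilized beta-catenin, both with Lipofectamine 3000 for 48 h. The si-CTL group received a control siRNA and the si-Ctnnb1 group an siRNA against the beta-catenin gene, both with Lipofectamine RNAiMAX for 24 h. The kind of nucleic acid, the reagent and the time after transfection therefore cannot be told apart in any comparison of a plasmid group with an siRNA group. The labels name no separate cultures or clones, so p-values measure the spread between these libraries only, which may be technical.

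Type I and type III interferons bind receptors at the cell surface and activate the kinases Jak1 and Tyk2, and a complex that contains Stat2 and Irf9 then binds the interferon-stimulated response element (ISRE) in promoters. The gamma-activated site (GAS) is another promoter element of interferon responses. Foreign DNA and double-stranded RNA in the cytoplasm are sensed by cGAS, RIG-I, MDA5 and related proteins, which lead to interferon production, and epithelial cells including cholangiocytes can make and answer interferons.

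The promoters are shown because the 6 genes are grouped by their known response to interferon, and the ISRE is the sequence through which that response is classically read. RefSeq promoter windows (250 bases before to 50 after the start, GRCm38.p6) were at hand for Eif2ak2 and Dtx3l. Ifi27, Ifi27l2a, Usp18 and Parp9 had no window to print. The stretches below are written 5′ to 3′ on the strand of the gene, with ISRE matches in capitals, and Stat2, Gbp3, Gbp7 and Ifit1 are set beside the members as examples picked because their windows hold an exact ISRE.
Eif2ak2, chr17:78882544-78882672, minus strand: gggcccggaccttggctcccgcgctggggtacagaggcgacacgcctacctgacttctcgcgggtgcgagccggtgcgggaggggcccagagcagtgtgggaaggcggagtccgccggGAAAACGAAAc
Dtx3l, chr16:35939207-35939277, minus strand: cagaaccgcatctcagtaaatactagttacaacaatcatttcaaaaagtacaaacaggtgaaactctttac
Stat2, chr10:128270261-128270300, plus strand: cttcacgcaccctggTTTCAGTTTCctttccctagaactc
Gbp3, chr3:142559984-142560029, plus strand: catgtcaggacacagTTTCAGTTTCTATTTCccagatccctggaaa
Gbp7, chr3:142530268-142530307, plus strand: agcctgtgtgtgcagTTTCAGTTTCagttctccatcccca
Ifit1, chr19:34640770-34640828, plus strand: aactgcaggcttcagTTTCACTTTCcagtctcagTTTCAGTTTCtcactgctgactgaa

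The ISRE was searched as GAAA, 2 bases of any kind and GAAA again, and the GAS as TTC, 3 bases of any kind and GAA, on both strands. Eif2ak2 held 1 ISRE match whose first base was 19 bases after the start, and 1 GAS match that began 178 bases before it, outside the stretch shown. Dtx3l held neither motif, and with 1 mismatch allowed its window held an ISRE-like run 41 bases after the start, as did 35.4% of all windows somewhere along their length. An exact ISRE was present in 3.44% of the 32851 promoter windows of the genome, and an exact GAS in 8.30%. Of the 100 interferon genes with a window in the wider list described below, 38 held an exact ISRE (38.0%), against 1079 of 27025 genes (3.99%). In Gbp3 the 2 matches overlap and read as 1 run, and in Gbp7 a single ISRE was joined by 2 GAS matches. Among other list genes described below, Slfn9, Ddx58 and Ifih1 held an exact ISRE, Plscr1 and a window of Irf1 held a GAS match without an ISRE, and Oasl2, Slfn2, Helz2 and Mov10 held neither. A match describes letters in a window and not a bound site.

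**Figure D1:**
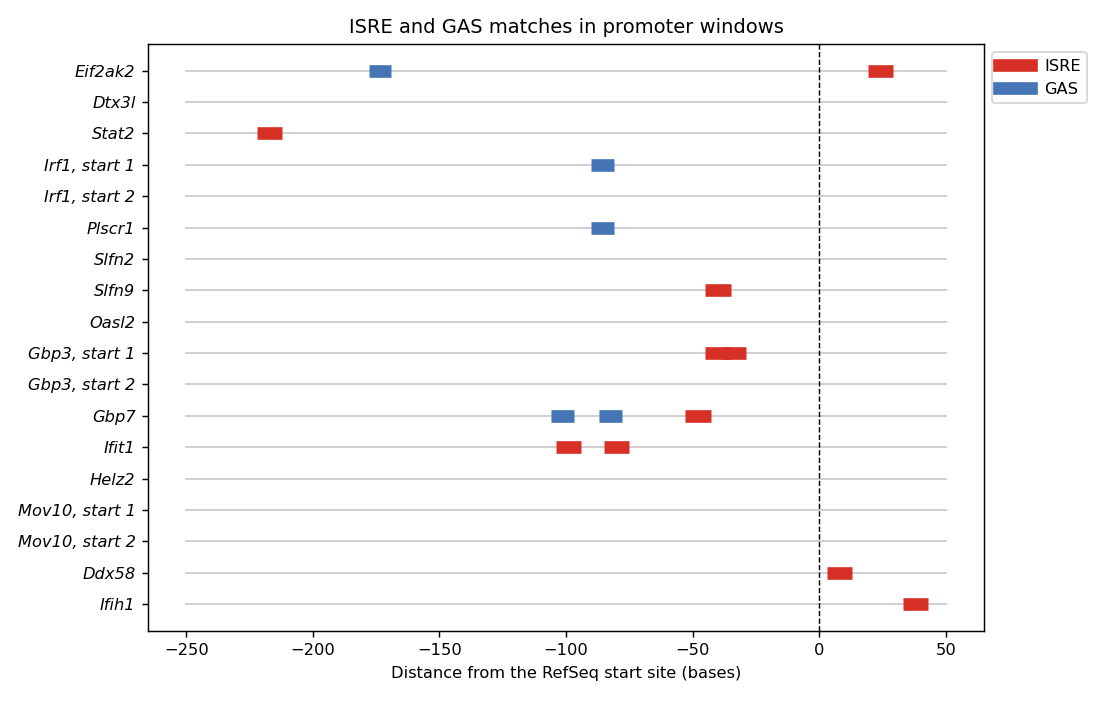
Each line is a promoter window from 250 bases before to 50 bases after a RefSeq start site (x axis, bases from the start), with ISRE matches in red and GAS matches in blue. Eif2ak2 holds an ISRE match just after its start and a GAS match upstream, Dtx3l holds none, and Ifit1 holds 2 ISRE matches that begin 104 and 85 bases before its start.

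In mm10, with GENCODE M21 gene models, Ifi27 lies at chr12:103434211-103440239 on the plus strand and Ifi27l2a at chr12:103442167-103443680 on the minus strand. The RefSeq span of Ifi27l2a runs from 103433873 to 103443680 and so contains Ifi27. Parp9 (chr16:35938470-35972605, plus strand) and Dtx3l (chr16:35926511-35939151, minus strand) are head to head. They share 458 bases of exon on opposite strands, which is 9.40% of the exon bases of Parp9 and 8.0% of those of Dtx3l. Eif2ak2 (chr17:78852564-78882573, minus strand) and Usp18 (chr6:121245906-121270917, plus strand) are overlapped on the opposite strand over 4.32% and 4.44% of their exon bases by noncoding genes, the long noncoding Gm26637 and the ribosomal n-R5s29 for Eif2ak2 and the long noncoding Gm44148 for Usp18. Stretches of 50 transcript bases that also occur in another gene on the same strand numbered 68 of 5676 in Dtx3l (1.2%, shared with 233 genes), 15 of 5106 in Eif2ak2 (shared with Gm48800), 2 of 414 in Ifi27l2a (shared with its paralog Ifi27l2b) and 0 in Ifi27, Usp18 and Parp9. Read on the opposite strand, the shared portion was 8.02% in Dtx3l (with 267 genes), 7.71% in Parp9, 2.81% in Usp18, 2.59% in Eif2ak2 and 0 in Ifi27 and Ifi27l2a, and how many of the counts came from such stretches was not measured.

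The libraries were shallow and unequal. Total counts were 113481 to 122304 in eGFP, 91468 to 117419 in S45Y, 221767 to 326686 in si-CTL and 295677 to 313074 in si-Ctnnb1. Rn45s, the ribosomal RNA precursor, took 12.6% ± 2.69 and 12.9% ± 2.47 of counts in eGFP and S45Y, and 4.31% ± 1.03 and 2.15% ± 0.463 in si-CTL and si-Ctnnb1 (SD, n = 3). The part of depth and Rn45s in the results was not tested beyond scaling and leaving Rn45s out. Ctnnb1 had 13, 38 and 28 counts in si-CTL and 0, 11 and 3 in si-Ctnnb1, without overlap, whereas the eGFP (6, 11 and 10) and S45Y (11, 4 and 18) libraries overlapped. The strand setting of the counting is not given in the sources used here, and several values bear on it. Gapdh, a gene of every cell, had 0 to 6 counts per library and Actb 27 to 150, whereas Tsix had 426 to 1773 against 2 to 17 for Xist on the opposite strand, and Gm15441 18 to 552 against 0 to 4 for Txnip on the opposite strand. Which strand the reads behind each count came from could therefore not be told, and the values below are counts assigned to a gene symbol, not shown to be its own mRNA.

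Ifi27 and Ifi27l2a encode small hydrophobic proteins of mitochondrial and nuclear membranes that are widely used as markers of an interferon response. Ifi27 had 15, 11 and 8 counts in the eGFP libraries, 2, 7 and 2 in S45Y, 0, 0 and 2 in si-CTL and 0, 0 and 0 in si-Ctnnb1. As CPM, counts divided by the library total and scaled to a common size with TMM factors, these were 96.2 ± 26.1 in eGFP, 36.9 ± 29.7 in S45Y and 2.20 ± 3.80 in si-CTL (SD, n = 3). Every plasmid library was above every siRNA library, the 3 eGFP libraries were above the 3 S45Y libraries, and the siRNA groups overlapped at or near 0. Ifi27l2a had 28, 35 and 29 counts in eGFP, 22, 25 and 25 in S45Y, 8, 26 and 9 in si-CTL and 10, 9 and 25 in si-Ctnnb1. Its CPM were 262 ± 26.0, 239 ± 22.0, 47.5 ± 26.0 and 48.0 ± 28.6 in the same order. The plasmid groups overlapped each other, as did the siRNA groups, and the lowest plasmid library (214 CPM) stood above the highest siRNA library (81.0 CPM).

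Eif2ak2 encodes PKR, a kinase that is switched on by double-stranded RNA and halts translation by phosphorylating eIF2alpha. It had 10, 15 and 13 counts in eGFP, 8, 8 and 11 in S45Y, 9, 5 and 10 in si-CTL and 9, 4 and 6 in si-Ctnnb1. The raw eGFP counts were all above those of si-Ctnnb1, while the raw counts of the other crosses of a plasmid with an siRNA group overlapped or touched and separated once divided by library totals, which were smaller for the plasmid libraries. Levels were 109 ± 21.8 CPM in eGFP and 88.6 ± 6.57 in S45Y, against 29.3 ± 12.9 in si-CTL and 21.0 ± 8.93 in si-Ctnnb1. Within each kind of transfection the groups overlapped. Usp18, the protease that removes ISG15 from proteins and restrains signalling at the type I interferon receptor, had 15, 31 and 20 counts in eGFP, 25, 14 and 26 in S45Y, 19, 26 and 7 in si-CTL and 3, 13 and 21 in si-Ctnnb1. Its CPM were 187 ± 63.2 in eGFP, 216 ± 70.5 in S45Y, 61.6 ± 33.6 in si-CTL and 40.1 ± 29.0 in si-Ctnnb1. Usp18 was the member whose S45Y mean was above its eGFP mean, within overlapping ranges, and its siRNA libraries spread from 10.2 to 84.4 CPM.

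Parp9 and Dtx3l encode a macrodomain protein of the PARP family and its partner, a ubiquitin E3 ligase, which act as a complex. Parp9 had 54, 68 and 60 counts in eGFP, 22, 28 and 55 in S45Y, 5, 14 and 11 in si-CTL and 8, 16 and 14 in si-Ctnnb1. Its CPM were 520 ± 60.2, 334 ± 119, 33.4 ± 10.04 and 41.4 ± 12.7. The third S45Y library, at 470 CPM, reached into the eGFP range of 450 to 557 CPM, while the other two S45Y libraries were lower. Dtx3l had 19, 39 and 19 counts in eGFP, 7, 20 and 14 in S45Y, 7, 10 and 8 in si-CTL and 22, 12 and 12 in si-Ctnnb1. Its CPM were 217 ± 86.4, 134 ± 63.2, 29.1 ± 2.45 and 50.8 ± 20.7. The plasmid and siRNA libraries of Dtx3l came closest to each other, with the lowest S45Y library at 79.2 CPM and the highest si-Ctnnb1 library at 74.8 CPM, and its siRNA groups did not overlap. In each member all 6 plasmid libraries were above all 6 siRNA libraries, as in 124 of 2996 genes (4.14%), an order that the choice of members partly fixed. As these are bulk RNA samples, more cells with a transcript and more of it per cell cannot be told apart.

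**Figure D2:**
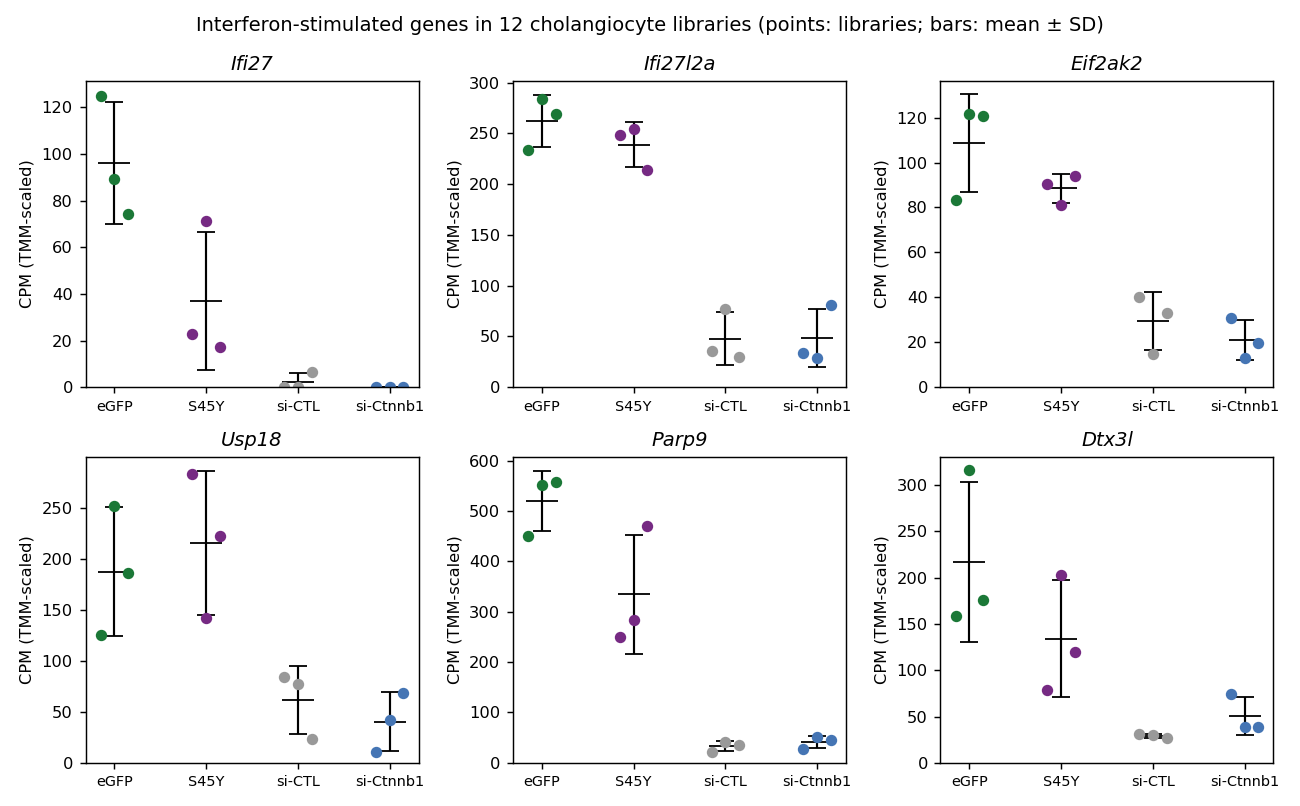
CPM scaled by TMM (y axis, from 0) of each of the 6 genes in the 3 libraries of each group (points), with the mean and SD of the group (bars). In every panel the eGFP and S45Y points sit above the si-CTL and si-Ctnnb1 points, and Dtx3l has the smallest gap, from 74.8 to 79.2 CPM.

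The pair of groups that the choice of members did not use is S45Y against si-Ctnnb1, and the members were tested in it alone. Parp9, Usp18 and Ifi27l2a were higher in S45Y with and without the filter on low counts, Eif2ak2 and Dtx3l passed the test only with it, and Ifi27, too low for the filtered test, was called without it. With the filter a tested member had to be higher in S45Y, since at most 1 si-Ctnnb1 library of each reached the 48.4 CPM that the filter asked of 3 libraries, so the filtered values below describe size and their direction and number support nothing. Parp9 had the largest log2 fold change, 3.07 (SE 0.35, edgeR quasi-likelihood adjusted p = 2.47e-08), an 8.38-fold difference. Usp18 had 2.45 (SE 0.44, edgeR adjusted p = 8.12e-05) and Ifi27l2a 2.34 (SE 0.38, edgeR adjusted p = 2.08e-05), on the log2 scale. Eif2ak2 had 2.11 (SE 0.56, edgeR adjusted p = 0.00583) and Dtx3l 1.45 (SE 0.45, edgeR adjusted p = 0.0179). In each, all 3 S45Y libraries were above all 3 si-Ctnnb1 libraries. Of 2702 genes tested, 557 were called (20.6%), 238 of them higher in S45Y (8.81%), and 14.7% had all S45Y libraries above all si-Ctnnb1 libraries.

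Without the filter, over 13092 genes of which 0.68% were called higher and 3.57% lower, Parp9 (log2 2.75, edgeR adjusted p = 1.67e-12), Ifi27l2a (2.03, edgeR adjusted p = 7.68e-06) and Usp18 (2.13, edgeR adjusted p = 1.21e-05) were called. Eif2ak2 (1.79, edgeR adjusted p = 0.0799) and Dtx3l (1.14, edgeR adjusted p = 0.160) were not. Ifi27, with 11 counts in S45Y, 7 of them in the second library, against 0, was called there (edgeR adjusted p = 0.0100). It was 11-fold higher in S45Y when the si-Ctnnb1 group is given the 3 counts that a count of 0 allows. Such ratios against 3 counts allow for counting error in the 0 only. They take the plasmid count as exact and are not lower limits. The intervals given below cover counting error only. Leaving out the second S45Y library took Dtx3l to 0.96 (edgeR adjusted p = 0.237), and its call was also lost without the third S45Y, the second si-Ctnnb1 or the third si-Ctnnb1 library (0.0506, 0.0551 and 0.0633 as edgeR adjusted p). Eif2ak2 lost its call without the third S45Y library (edgeR adjusted p = 0.0676) or the second si-Ctnnb1 library (edgeR adjusted p = 0.0551). Without the third si-Ctnnb1 library, the highest of its group for both genes, Usp18 rose by 3.09 (edgeR adjusted p = 6.07e-05) and Ifi27l2a by 2.99 (edgeR adjusted p = 7.61e-06). An exact permutation test of mean log2 CPM, two-sided, gave p = 0.1 for each of the 6 genes, the smallest p that 3 against 3 libraries allow.

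As Parp9 and Dtx3l share exon bases, their counts were also summed as a single locus, an alternative added after the data were seen, and the sum rose by 2.41 on the log2 scale (edgeR adjusted p = 3.42e-08). That sum was over the 48.4 CPM of the filter in all 6 libraries. Ifi27 and Ifi27l2a summed in the same way rose by 2.55 (edgeR adjusted p = 2.35e-06), but only 1 si-Ctnnb1 library was over the filter, so this sum too entered through S45Y. Without the filter it rose by 2.24 (edgeR adjusted p = 9.89e-08) and the sum of Parp9 and Dtx3l by 2.09 (edgeR adjusted p = 1.74e-11).

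In the other 3 crosses of a plasmid with an siRNA group, which share libraries with the pair that chose the members, the fitted log2 fold changes of the 5 genes other than Ifi27 lay between 1.67 and 3.95 and are given without a test. In eGFP against si-CTL, the pair behind the choice, log2 fold changes were 3.95 (SE 0.30) for Parp9, 2.94 (SE 0.42) for Dtx3l, 2.46 (SE 0.36) for Ifi27l2a, 1.97 (SE 0.53) for Eif2ak2 and 1.67 (SE 0.40) for Usp18. Of 2459 genes tested there, 7.93% were called higher in eGFP. Ifi27 had 34 counts against 2, a ratio of 41.9 after scaling with a 95% counting interval of 10.7 to 360. Both si-CTL counts lay in the third library, and the fitted log2 fold change of 5.11 went to 7.16 without that library and to 4.49 without the second. In S45Y against si-CTL, where 5.68% of 2463 genes were called higher, they were 3.33 (SE 0.37) for Parp9, 2.32 (SE 0.39) for Ifi27l2a, 2.24 (SE 0.50) for Dtx3l, 1.86 (SE 0.41) for Usp18 and 1.67 (SE 0.55) for Eif2ak2. The Ifi27 ratio, against the same 2 counts, was 15.6 (95% counting interval 3.42 to 145). Without the second si-CTL library Ifi27l2a had 2.91 in this cross.

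In eGFP against si-Ctnnb1, where 9.47% of 2777 genes were called higher, log2 fold changes were 3.68 (SE 0.29) for Parp9, 2.48 (SE 0.35) for Ifi27l2a, 2.40 (SE 0.54) for Eif2ak2, 2.25 (SE 0.43) for Usp18 and 2.15 (SE 0.37) for Dtx3l. Without the third si-Ctnnb1 library Ifi27l2a had 3.09 and Usp18 2.86. Ifi27, with 34 counts against 0, was 29.4-fold higher when the 0 is given 3 counts. Parp9 had the largest fitted change of the 5 in each cross.

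**Figure D3:**
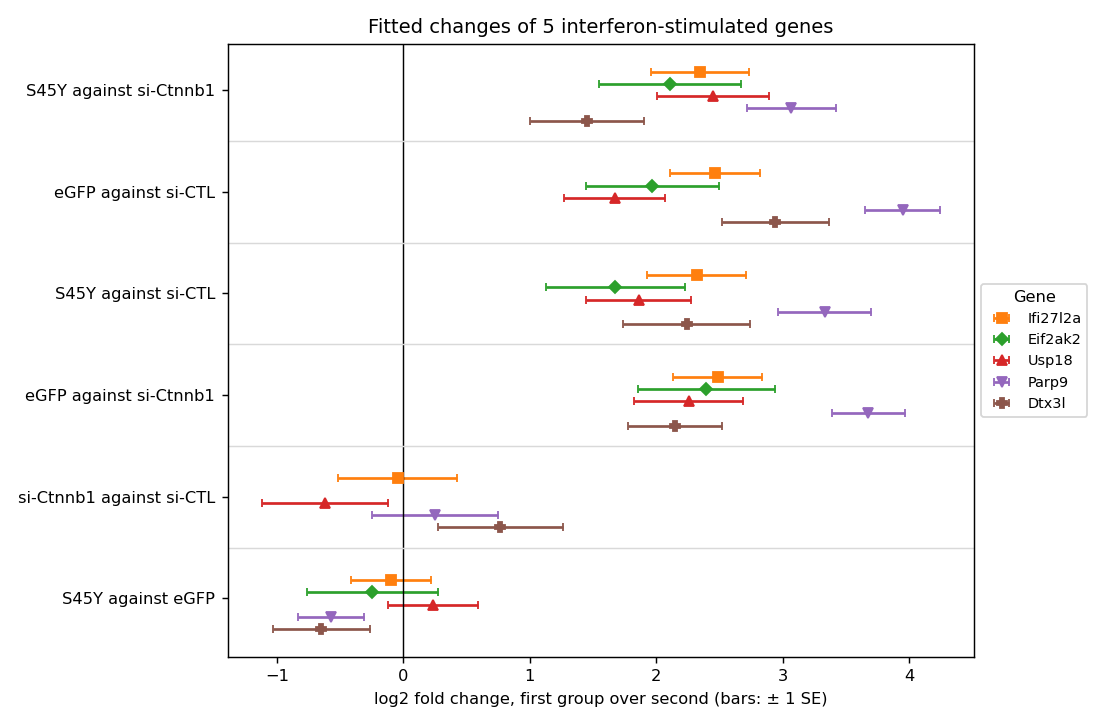
Fitted log2 fold change (x axis, first group over second) with 1 SE for each gene that passed the filter in 6 pairs of groups, Ifi27 left out because its siRNA counts are at or near 0. The 4 upper rows cross a plasmid with an siRNA group and lie between 1.45 and 3.95, and the 2 lower rows stay within the same kind of transfection and lie between -0.65 and 0.77.

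The study's own questions, what silencing and what activating beta-catenin change, are answered within a kind of transfection. There the fitted changes of the members that passed the filter lay between -0.65 and 0.77 on the log2 scale and were not tested. In S45Y against eGFP the log2 fold changes were -0.57 (SE 0.26) for Parp9, -0.65 (SE 0.39) for Dtx3l, -0.25 (SE 0.52) for Eif2ak2, -0.10 (SE 0.32) for Ifi27l2a and 0.24 (SE 0.36) for Usp18. Ifi27 was below the filter and had -1.36 without it. Its S45Y libraries lay at 17.1 to 71.1 CPM and its eGFP libraries at 74.3 to 125 CPM, a complete separation downward. Of the 1819 genes that passed the filter, 5.99% showed such a separation. Across all genes edgeR called 0 in this pair, with 107 (5.88%) at an unadjusted p under 0.05. In si-Ctnnb1 against si-CTL the log2 fold changes were 0.77 (SE 0.49) for Dtx3l, 0.25 (SE 0.50) for Parp9, -0.04 (SE 0.47) for Ifi27l2a and -0.62 (SE 0.50) for Usp18. Eif2ak2 and Ifi27 were below the filter and without it had -0.45 and -2.68, the latter from 0 counts against 2. Without the third si-Ctnnb1 library Usp18 had -1.22 and Ifi27l2a -0.64, and without the second si-CTL library Ifi27l2a had 0.54. Dtx3l, at 38.8 to 74.8 CPM in si-Ctnnb1 and 26.3 to 31.1 CPM in si-CTL, was separated upward, as were 10% of 3484 genes, and edgeR called 1.55% of genes in this pair. The SE of these values leave room for changes of 1 or more on the log2 scale in several members.

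The rest of the interferon pathway was read from a list of 123 ligands, receptors, signalling factors, sensors and other interferon-stimulated genes, of which 119 are in the table. Of these, 20 had no count and 98 never reached 10 counts in a library, and whether depth, the counting strand or low expression lay behind this was not tested. Among the ligands, Ifnb1, the 4 alpha genes listed, Ifnl2 and Ifng had 0 counts in all libraries and Ifnl3 had 1, in an S45Y library. The receptor genes had 8 to 31 counts each over 12 libraries, too few to be tested. Ifnar2 and Ifnar1, which form the type I receptor, had 31 and 17, Ifngr1 and Ifngr2 of the interferon gamma receptor 23 and 21, and Il10rb, a chain of the type III receptor, 9. In S45Y against si-Ctnnb1, 7 of the 119 genes could be tested, 3 rose (Stat2, Plscr1 and Irf1) and 0 fell by the edgeR test, with 3 at an unadjusted p under 0.05, as had 31.5% of all genes tested. Their median log2 fold change was 1.15, against 0.02 over all genes tested, and 8.81% of all genes were called higher. As with the members, the 3 that rose passed the filter through S45Y alone. Ifi35, whose value is this median, was also over the filter in all 3 S45Y libraries but in 1 si-Ctnnb1 library, so the filter favoured higher values in 4 of the 7 and the median supports nothing.

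Stat2, the subunit that brings the transactivation domain to the interferon complex, had 8, 9 and 10 counts in S45Y and 5, 0 and 0 in si-Ctnnb1, or 89.1 ± 3.22 and 5.66 ± 9.81 CPM. It rose by 3.92 on the log2 scale (SE 0.76, edgeR adjusted p = 0.000198). Plscr1, a phospholipid scramblase with antiviral activity, had 5, 6 and 8 counts against 4, 5 and 0, and rose by 2.64 (SE 0.71, edgeR adjusted p = 0.00612). Irf1, a transcription factor induced mainly through GAS sites, whose exons are overlapped on the opposite strand over 3.40% of their bases, had 5, 13 and 6 counts against 10, 3 and 7, and rose by 1.88 (SE 0.60, edgeR adjusted p = 0.0208). The raw counts of Irf1 overlapped between the groups, and its CPM, 51.3 to 132 against 9.71 to 34.0, did not. Without the filter, Plscr1 and Irf1 were not called (edgeR adjusted p = 0.0797 and 0.195). With single libraries left out, Stat2 was called each time, Irf1 only without the third S45Y library and Plscr1 never.

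Of the most counted genes of the list, Tapbp, Znfx1, Ifi35 and Tyk2 did not pass the test. Their exons are overlapped on the opposite strand over 24.9%, 1.0%, 16.8% and 8.07% of their bases. Tapbp, which loads peptides onto class I molecules, had a log2 fold change of 0.29 (SE 0.33, edgeR adjusted p = 0.592) in S45Y against si-Ctnnb1. Znfx1, an RNA-binding sensor of viral RNA, had 0.32 (SE 0.45, edgeR adjusted p = 0.680) and Ifi35 1.15 (SE 0.59, edgeR adjusted p = 0.179). Tyk2 had -0.18 (SE 0.57, edgeR adjusted p = 0.873). Tor3a, Jak2 and Irf7 were below the filter in this pair. Tor3a, an ATPase of the torsin family, had 20.3 to 147 CPM in plasmid and 44.2 to 97.7 CPM in siRNA libraries, and was not called in any cross that tested it. Jak2, a kinase of the interferon gamma receptor, had 11.3 to 81.1 and 11.9 to 32.4 CPM, and Irf7, a transcription factor for alpha interferon genes, 0 to 100.01 and 13.0 to 29.8 CPM, so that plasmid and siRNA libraries overlapped in all 3 genes. Mov10, an RNA helicase, had 3, 0 and 1 counts in S45Y and 26, 29 and 13 in si-Ctnnb1, was removed by the filter, and was called lower without it (log2 -2.70, edgeR adjusted p = 0.00702). Helz2, a helicase that acts as a nuclear coactivator, had 5, 4 and 10 counts in S45Y and 0, 4 and 2 in si-Ctnnb1, was likewise removed, and was called higher without the filter (log2 2.86, edgeR adjusted p = 0.0273). Also called higher there were Stat2 (edgeR adjusted p = 0.000348) and the low genes Oasl2 (0.000217), Gbp7 (0.0118) and Ifit1 (0.0227), described below.

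In the other crosses the counts of list genes called were 1 higher of 6 tested in eGFP against si-CTL (Slfn2, 7.93% of all genes higher), 1 of 6 in S45Y against si-CTL (Stat2, 5.68%) and 5 of 12 in eGFP against si-Ctnnb1 (Stat2, Irf1, Plscr1, Slfn2 and Slfn9, 9.47%), with 0 lower in each by edgeR. Each of these called genes was over the filter in all 3 plasmid libraries and in 0 siRNA libraries, so it had to be higher once tested, and eGFP against si-CTL is also the pair behind the choice of members. Without the filter, where 0.537%, 0.374% and 0.954% of all genes were called higher in the same order of crosses, Slfn2 was called in both crosses of eGFP (edgeR adjusted p = 0.0107 and 0.0145) and Stat2 was not in S45Y against si-CTL (edgeR adjusted p = 0.0977). In eGFP against si-Ctnnb1 Stat2 (edgeR adjusted p = 0.000679) and Irf1 (0.0397) were then called, and Plscr1 (0.0778) and Slfn9 (0.362) were not. Slfn2, a Schlafen family member, was counted 11, 11 and 8 times in the eGFP libraries but 2, 2 and 3 times in those of S45Y. It rose by 2.77 (SE 0.66, edgeR adjusted p = 0.00178) against si-CTL and by 2.58 (SE 0.62, edgeR adjusted p = 0.00168) against si-Ctnnb1 in eGFP, and its S45Y values of 20.3 to 25.6 CPM lay within the siRNA range of 0 to 26.3 CPM. Within a kind of transfection 0 of 7 list genes were called by edgeR in si-Ctnnb1 against si-CTL (1.55% of all genes) and 0 of 4 in S45Y against eGFP (0% of all genes), with 0 list genes at an unadjusted p under 0.05 in either pair, where 12.5% and 5.88% of all genes were. The difference between the effects of activation and silencing was tested over all 12 libraries, and 0 of 12 list genes passed by edgeR, with 1 (Mov10) at an unadjusted p under 0.05, where 0.534% of 2996 genes passed and 9.88% had an unadjusted p under 0.05.

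Summed over its 119 genes, the list had 2284 to 2619 CPM in eGFP, 1463 to 2138 in S45Y, 967 to 1011 in si-CTL and 777 to 948 in si-Ctnnb1, so that the lowest plasmid library was above the highest siRNA library. The summed cholangiocyte markers described below were separated in the same way, as were 4.14% of 2996 single genes. The list was written with earlier results of these data known. The 11 sensors and adaptors summed to 133 to 284 CPM in eGFP, 111 to 122 in S45Y, 53.3 to 69.1 in si-CTL and 30.6 to 97.1 in si-Ctnnb1. Ifih1, which encodes the double-stranded RNA sensor MDA5, had 3, 9 and 7 counts in eGFP, 3, 1 and 0 in S45Y and at most 2 in an siRNA library. Ddx58, which encodes the sensor RIG-I, had 33.3 to 74.3 CPM in eGFP, 0 to 34.2 in S45Y, 22.2 to 36.2 in si-CTL and 6.48 to 19.4 in si-Ctnnb1. Mavs, the adaptor of both sensors, had 43 counts in all, Tlr3, an endosomal receptor of double-stranded RNA, 21, and Tmem173 (STING) 20, each with plasmid and siRNA libraries that overlapped. Mb21d1, which encodes cGAS, had 5 counts in eGFP, 1 in S45Y, 0 in si-CTL and 9 in si-Ctnnb1, also with overlap.

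**Figure D4:**
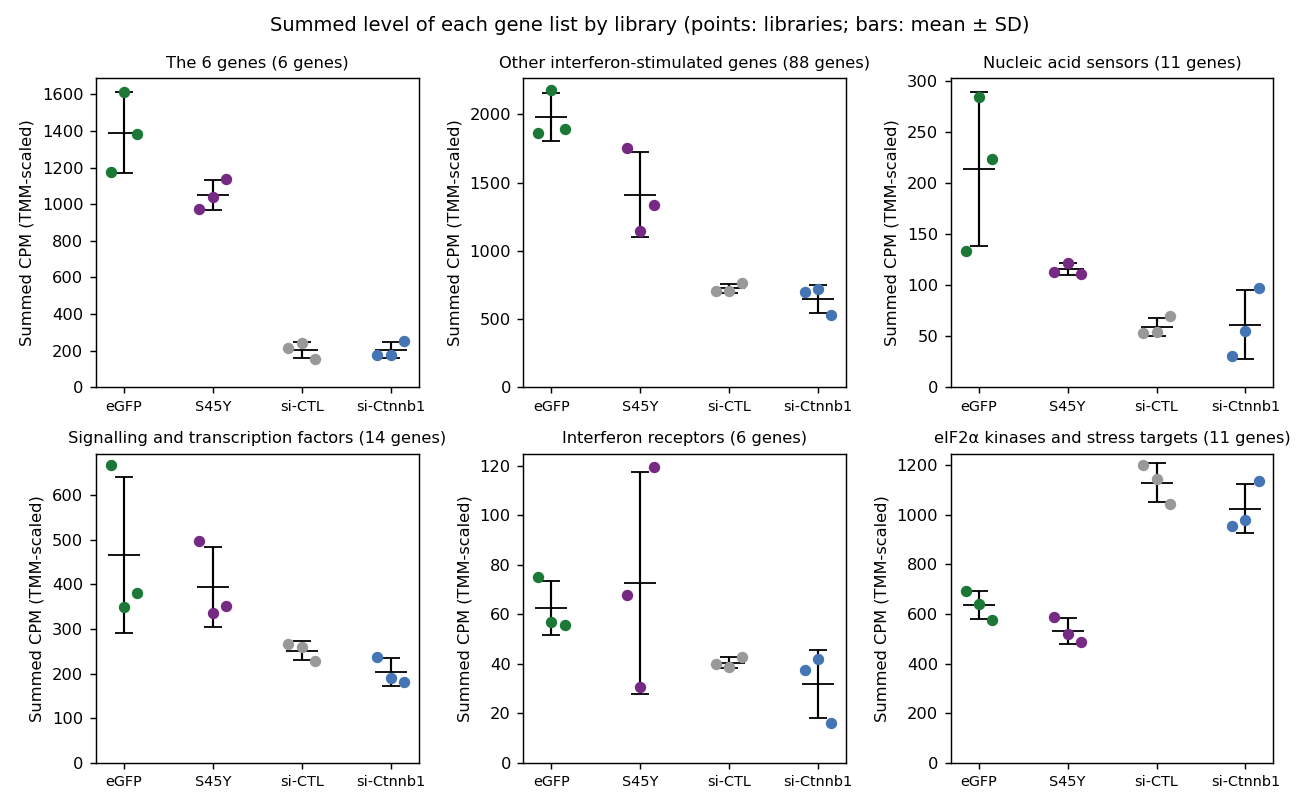
Summed CPM scaled by TMM (y axis, from 0) of each gene list in the 3 libraries of each group (points), with the mean and SD (bars). The 6 genes and the other interferon-stimulated genes are higher in eGFP and S45Y, and the eIF2alpha list is lower there than in the siRNA groups. The receptors, from 3 to 14 counts per library, are higher in eGFP than in both siRNA groups, and S45Y overlaps every other group.

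Among low genes, Oasl2, Gbp3 and Gbp7 were at 0 in all 6 siRNA libraries, although these were the deeper ones. They were singled out after their values were seen. Oasl2, a relative of the oligoadenylate synthetases, was counted 4, 6 and 1 times in the eGFP libraries, and 12, 0 and 5 times in those of S45Y. Gbp3 and Gbp7, guanylate-binding proteins of host defence, were likewise present in plasmid libraries, Gbp3 with 4, 4 and 9 counts in eGFP against 2, 0 and 4 in S45Y, and Gbp7 with 6, 7 and 2 against 3, 2 and 6. Against the 3 counts that a 0 allows over the group, S45Y was at least 17.0-fold (Oasl2), 6.0-fold (Gbp3) and 11-fold (Gbp7) higher than si-Ctnnb1. Ifit1, which binds viral RNA, was also singled out after its values were seen, with 2, 4 and 4 counts in eGFP, 0, 3 and 7 in S45Y and at most 1 in an siRNA library. Of all genes with 15 or more counts, 5 of 8213 (0.0609%) were at 0 in every siRNA library, and of the interferon list 3 of 51 (5.88%).

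Of the other genes of the eIF2alpha pathway, in which Eif2ak2 acts, Ddit3 fell in S45Y. The list of eIF2alpha kinases and stress targets holds 11 genes, of which 2 were tested in S45Y against si-Ctnnb1, 1 fell and 0 rose, where 11.8% of all genes were called lower. Ddit3 (CHOP), a transcription factor induced when eIF2alpha is phosphorylated, had 17, 21 and 23 counts in S45Y and 138, 188 and 166 in si-Ctnnb1, and fell by 1.37 on the log2 scale (SE 0.23, edgeR adjusted p = 4.18e-05). It was also lower in the other 3 crosses, by -1.12 (eGFP against si-CTL, edgeR adjusted p = 0.000247), -1.31 (S45Y against si-CTL, edgeR adjusted p = 0.000394) and -1.18 (eGFP against si-Ctnnb1, edgeR adjusted p = 4.54e-05), where 8.95%, 6.5% and 12.7% of all genes were called lower. Atf4, which acts upstream of it, had a log2 fold change of -0.70 (SE 0.31, edgeR adjusted p = 0.11) in S45Y against si-Ctnnb1, and fell in both crosses with si-CTL (-1.07 in each, edgeR adjusted p = 0.00528 for eGFP and 0.0110 for S45Y). Of the list, 3 of 4 tested were lower in eGFP against si-CTL, 2 of 4 in S45Y against si-CTL and 1 of 3 in eGFP against si-Ctnnb1.

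The third gene lower in eGFP against si-CTL was Ppp1r15a (GADD34), the phosphatase subunit that reverses eIF2alpha phosphorylation. It had 2, 0 and 0 counts in eGFP, 0, 4 and 3 in S45Y, 14, 20 and 22 in si-CTL and 20, 14 and 22 in si-Ctnnb1. All plasmid libraries (0 to 40.6 CPM) were below all siRNA libraries (45.3 to 72.4 CPM), as in 7.21% of 2996 genes. It fell by 3.32 on the log2 scale in eGFP against si-CTL (SE 0.87, edgeR adjusted p = 0.00432), where it passed the filter through si-CTL alone, and was also called without the filter (edgeR adjusted p = 0.00227). In S45Y against si-CTL it had -1.43 (edgeR adjusted p = 0.168), and in S45Y against si-Ctnnb1 it was below the filter and without it had -1.66 (edgeR adjusted p = 0.204). The kinase gene Eif2ak1, overlapped on the opposite strand over 11.6% of its exon bases, was not called in the 3 crosses that tested it and Eif2ak4 was below the filter in all 4, at 10.2 to 105 and 25.6 to 90.5 CPM in plasmid and 38.8 to 111 and 11.9 to 68.0 CPM in siRNA libraries.

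Markers of the labelled cell type and of others were read in the same libraries. Of the cholangiocyte markers, Epcam and Cftr had no count, and Krt8 and Krt18, epithelial keratins, were higher in S45Y than in si-Ctnnb1 by 1.15 and 1.07 on the log2 scale (edgeR adjusted p = 0.00104 and 8.35e-05). Spp1 (osteopontin) was higher by 1.35 in the same pair (edgeR adjusted p = 0.000492) and by 1.06 in eGFP against si-Ctnnb1 (edgeR adjusted p = 0.00298), and Krt19 had 0.71 (edgeR adjusted p = 0.122). The cholangiocyte markers summed to 1354 to 1917 CPM in eGFP, 1544 to 1956 in S45Y, 911 to 1244 in si-CTL and 770 to 894 in si-Ctnnb1, moving with the members, and their part in the result was not tested. The 8 leukocyte markers summed to 37.1 to 122 CPM in plasmid libraries and 72.4 to 129 CPM in siRNA libraries, with Ptprc, Lyz2, Adgre1, Itgam and Cd3e at 0. The detected leukocyte markers were Cd68 with 174 counts, Csf1r with 55 and Cd79a with 9. Csf1r, the receptor of a macrophage growth factor, lay opposite to the members, with 0 to 11.3 CPM in plasmid and 9.88 to 51.8 CPM in siRNA libraries, ranges that overlap, and was too low to be tested. Its exons are overlapped on the opposite strand over 15.1% of their bases. The hepatocyte markers Alb, Ttr, Apoa1 and Cyp2e1 were at 0 and Hnf4a had 35 counts, 9 of them in plasmid libraries. Of the fibroblast and stellate markers Col3a1 and Lrat were at 0, Des had 8 counts, Pdgfrb 4, all in plasmid libraries, and Col1a1 2.

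The genes whose log2 CPM most resembled the mean standardized profile of the 6 genes over the 12 libraries, out of 2990, were Mir6381 (r = 0.982), Trim12c (0.977), Gm15441 (0.975), Malat1 (0.973) and Slc7a15 (0.962), and 34 genes had r above 0.9. These r describe points that share library, depth and the plasmid and siRNA split, and have no p. Mir6381 (chr3:142623860-142623946, minus strand) lies within Gbp2 on the opposite strand and shares 24 exon bases with it. Mir6381 had 330 counts in all, at 170 to 649 CPM in plasmid libraries and 23.8 to 38.8 CPM in siRNA libraries, while Gbp2, an interferon-induced guanylate-binding protein, had 11, all of them in plasmid libraries. Trim12c, a relative of the antiviral Trim5, had 111 to 278.5 CPM in plasmid and 4.44 to 23.8 CPM in siRNA libraries and no gene on the opposite strand.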

How the data were processed

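SMCC RNA-seq libraries (12, 3 per group) were grouped by their labels. The authors checked reads with FastQC, filtered them with Trimmomatic 0.38, aligned them to mm10 with HISAT2 2.1.0 and counted them per gene with HTSeq 0.11.2 (versions from the submitters' processing notes). The deposited values are whole-number counts, not normalized, with replicates apart. Annotation, strand setting and read type are not given in the sources used here.

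Counts were tested in R 4.3.3 with edgeR 4.0.16 (TMM, filterByExpr with a minimum count of 10 and a total of 15, quasi-likelihood test, Benjamini-Hochberg over all genes tested, call at 0.05), each pair of groups on its own 6 libraries. CPM used TMM factors over 12 libraries, and log2 CPM a prior count of 2. No replicate pair agreed within sampling noise. On counts simulated for S45Y against si-Ctnnb1 (2689 genes), 97.9% of genes changed by a log2 of 2 and 46.7% by 1 were called. Alternatives included DESeq2 1.42.0, other scalings and filters, and each library left out. Named were the 6 members, list genes called in S45Y against si-Ctnnb1 or in 2 of the 4 crosses, the up to 5 most counted genes per list (1 is not reported here), and the 5 genes most like the members. Slfn9, Helz2, Oasl2, Gbp3, Gbp7, Ifit1 and Mb21d1 were named after their values were seen. The members and lists were chosen with earlier results of these data known.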

Additional observations from a re-analysis of the deposited data

How the results depend on the processing

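In S45Y against si-Ctnnb1, 557 genes, 5 members and 3 genes of the interferon list were called. A log2 fold change of at least 1 left 316 genes. Of the interferon list, 6 were called without the low-count filter, 5 with a minimum count of 5 and 5 in one fit of all 12 libraries, each with 1 (Mov10) lower. Leaving out each library in turn gave 418 to 507 genes, 3 to 5 members (3 without the third S45Y or the second si-Ctnnb1 library) and 1 to 3 list genes (1 without the first or the second si-Ctnnb1 library). Of the list genes, Stat2 was called each time, Irf1 only without the third S45Y library and Plscr1 never. The rest were Helz2 and Oasl2, called higher, and Mov10, called lower. With a replicate block 468 genes, 5 members and 2 list genes were called, Irf1 being lost. The shared numbers did not pair the libraries (correlations of deviations from -0.0225 to 0.00124). Without the filter 89 genes were higher and 468 lower, against 238 and 319, and the same 2702 genes shifted by a median of -0.32 on the log2 scale. DESeq2 called 558 genes, with 204 higher and 354 lower, and 4 genes of the interferon list, of which 1 (Mov10) was lower. With library size only, chosen after seeing the data, eGFP against si-CTL gave 155 higher and 258 lower in place of 195 and 220, and S45Y against si-CTL 113 and 191 in place of 140 and 160. Parp9, Usp18 and Ifi27l2a were called in 14 of 14 alternatives that could change a p, Eif2ak2 in 11 and Dtx3l in 9, and no member changed direction in that pair of groups. Most of the interferon list stayed under 10 counts in every library, and the part of depth in this was not tested.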
